A study of Sus scrofa with 2 samples.

Results

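The protein genes of mitochondrial DNA (mtDNA) were examined in RNA from the stria vascularis (SV), the secretory epithelium in the lateral wall of the cochlea. Members were the genes whose symbol in the deposited table starts with MT-ND, MT-CO or MT-ATP, or is CYTB, which gave 12 of 27622 features. A thirteenth protein gene, ND4L, was listed with a description but without a symbol, so that it fell outside this rule, and its values are given beside those of the members. The study asked how the SV transcriptome differs between pigs that carry 1 or both copies of r, the recessive Mitf allele of an albino and deaf line of Rongchang pigs. Lateral walls with their SVs were dissected and sequenced as 1 library per genotype, Mitf R/r and Mitf r/r. The labels give both as P1, postnatal day 1, whereas the text of the paper places this experiment at an embryonic stage, and the age was not settled here. How many animals went into each library is not given in the sources used here. Expression was deposited as RPKM, which scales the reads of a gene to its length and to the mapped reads of the library and allows levels of different genes to be compared per length.

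Mitochondria keep a small circular genome whose protein genes all encode core subunits of the respiratory chain and of ATP synthase. Both strands are transcribed as long precursors, which are cut into mRNAs largely at the tRNA genes that lie between them, and the levels of the mRNAs then depend on processing and stability as well as on transcription. The SV is rich in mitochondria, since the marginal cells that face the endolymph drive potassium secretion with sodium-potassium ATPase.

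The members together had 49812 RPKM in R/r tissue and 52292 RPKM in r/r tissue. This was 8.30% of the summed RPKM of all features in R/r tissue and 8.50% in r/r tissue, a share 0.201 percentage points higher in the latter. All 12 members stood among the 50 most abundant features of either library, and 5 of them were among the first 10. Counted as reads, which weigh long genes more, the members took 4.91% of 15829244 reads in R/r tissue (95% exact interval 4.90% to 4.92%) and 5.16% of 14258672 reads in r/r tissue (5.15% to 5.17%). Reads were worked out from the RPKM values, and all intervals given here hold counting error alone. Since each genotype had 1 library, no difference has a replicate check, so that these are differences between libraries, not between genotypes. The log2 ratio of the summed RPKM, r/r over R/r, was 0.070, an increase of 4.98%, and it was 0.035 after scaling to TPM and 0.038 after scaling by the RPKM outside mtDNA. In bulk tissue, fewer cells of a type and less RNA per cell cannot be told apart.

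The members encoding complex IV, cytochrome c oxidase, were the most abundant group, with 53.0% of the members' RPKM in R/r tissue and 54.4% in r/r tissue. MT-CO1 (ENSSSCG00000018075), the catalytic subunit that holds the site of oxygen reduction, had 10657 RPKM in R/r tissue and 11630 RPKM in r/r tissue. It ranked second among all features in both libraries, and its log2 ratio was 0.13 (95% interval 0.12 to 0.13). MT-CO3 (ENSSSCG00000018082), a core subunit beside the catalytic one, had 8623 and 9323 RPKM, a log2 ratio of 0.11 (0.10 to 0.12). MT-CO2 (ENSSSCG00000018078), which takes electrons from cytochrome c, had 7120 and 7489 RPKM, a log2 ratio of 0.073 (0.058 to 0.088). Each of the 3 genes was thus somewhat higher in r/r tissue, and their summed level went from 26400 to 28441 RPKM. Of the 2480 RPKM by which the members' sum was higher in r/r tissue, complex IV genes made up 2042 RPKM.

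The genes of complex V, ATP synthase, differed widely in RPKM although they lie on a shared mRNA with overlapping reading frames. Their values are therefore not levels of separate mRNAs. MT-ATP6 (ENSSSCG00000018081), whose product forms part of the proton channel, had 7809 RPKM in R/r tissue and 7833 RPKM in r/r tissue. Its log2 ratio, 0.0046 (-0.0096 to 0.019), was the nearest to 0 of all members, and its sign turned with the scaling, to -0.031 when RPKM was rescaled to TPM and to -0.028 when it was scaled by the RPKM outside mtDNA. MT-ATP8 (ENSSSCG00000018080), a small subunit that helps to assemble the membrane part of the enzyme, had the lowest RPKM of the members, 1333 and 1459 RPKM. Its log2 ratio was 0.13 (0.068 to 0.19). CYTB (ENSSSCG00000018094), cytochrome b, the mtDNA subunit of complex III, had 3155 RPKM in R/r tissue and 3364 RPKM in r/r tissue, a log2 ratio of 0.092 (0.075 to 0.11).

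The genes of complex I, NADH dehydrogenase, were lower in level than those of complex IV and did not all lie on the same side of 0. MT-ND1 (ENSSSCG00000018065), a membrane subunit next to the quinone site, had 1587 RPKM in R/r tissue and 1650 RPKM in r/r tissue, a log2 ratio of 0.056 (0.030 to 0.083). MT-ND2 (ENSSSCG00000018069), one of the antiporter-like subunits of the membrane arm, had 1374 and 1556 RPKM, a log2 ratio of 0.18 (0.15 to 0.21). MT-ND3 (ENSSSCG00000018084), a small subunit at the joint of the membrane and peripheral arms, had 1398 and 1603 RPKM. Its log2 ratio of 0.20 (0.15 to 0.24) was the highest of the members, above those of 82.7% of the genes compared. The other 3 members of this complex were lower in r/r tissue. MT-ND4 (ENSSSCG00000018087), also antiporter-like, had 3073 RPKM in R/r tissue and 2897 RPKM in r/r tissue, a log2 ratio of -0.085 (-0.10 to -0.069). MT-ND5 (ENSSSCG00000018091), the antiporter-like subunit at the far end of the membrane arm, had 1662 and 1606 RPKM, a log2 ratio of -0.049 (-0.068 to -0.030). MT-ND6 (ENSSSCG00000018092), the sole protein gene on the opposite strand, had 2021 and 1882 RPKM. Its log2 ratio of -0.10 (-0.14 to -0.070) was the lowest of the members, above those of 35.2% of the genes compared. These higher and lower genes nearly cancelled in the sum of complex I, which was 11115 RPKM in R/r tissue and 11195 RPKM in r/r tissue.

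**Figure D1:**
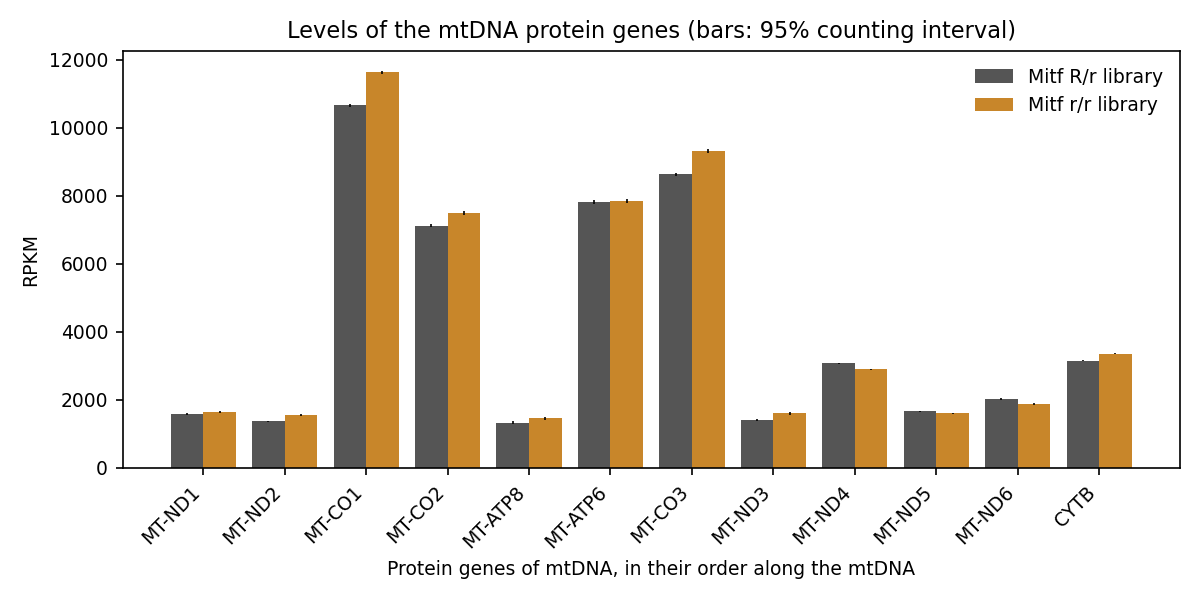
RPKM (vertical axis, linear) of the 12 members in their order along the mtDNA, with grey bars for the Mitf R/r library, orange bars for the Mitf r/r library and lines for 95% counting intervals. MT-CO1, MT-CO2, MT-CO3 and MT-ATP6 lie at 7120 RPKM or more in both libraries, and the other 8 members lie at 3364 RPKM or less.

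The order of the levels was nearly the same in both libraries. MT-CO1 came first, followed by MT-CO3, MT-ATP6 and MT-CO2, and these 4 genes held 68.7% of the members' RPKM in R/r tissue and 69.4% in r/r tissue. A gap of 2.26-fold in R/r tissue and 2.23-fold in r/r tissue separated MT-CO2 from the next gene, CYTB, which was the widest gap between neighbours in this order. After CYTB came MT-ND4 and MT-ND6. MT-ND5 stood above MT-ND1 in R/r tissue and below it in r/r tissue, which was the only change of place. At the low end, the counting intervals of MT-ND3 and MT-ND2 overlapped in both libraries. In R/r tissue the interval of MT-ATP8 overlapped those of MT-ND2 and MT-ND3. In r/r tissue the interval of MT-ND3 also overlapped those of MT-ND5 and MT-ND1. The order within these pairs was thus not resolved there. The highest member was 7.99-fold above the lowest in R/r tissue and 7.97-fold in r/r tissue, so the range of levels within a library was far wider than any difference between the libraries.

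None of the 12 members was at least 2-fold apart between the libraries, against 3.99% of the 16331 genes compared. Such a share would leave few or no genes in a list of 12, so this count does not set the members apart. A gene was compared when neither library listed it at 0 and its RPKM reached 1 in either, which all 12 members did. A log2 ratio above 0 was found for 9 of the 12 members, against 46.7% of the genes compared, and for 8 of them when RPKM was rescaled to TPM, against 39.9%. The median log2 ratio was 0.083 for the members and -0.018 over all genes compared. The interval of 11 members did not hold 0, against 21.2% of the genes compared, a share that is too low by an unknown amount because the reads found for other genes can be a fraction of the true ones. The members have far more reads than most genes, from 4243 reads for MT-ATP8 in r/r tissue to 260622 reads for MT-CO1 in R/r tissue. Counting intervals narrow with more reads, and the part of depth in this count of members was not tested.

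**Figure D2:**
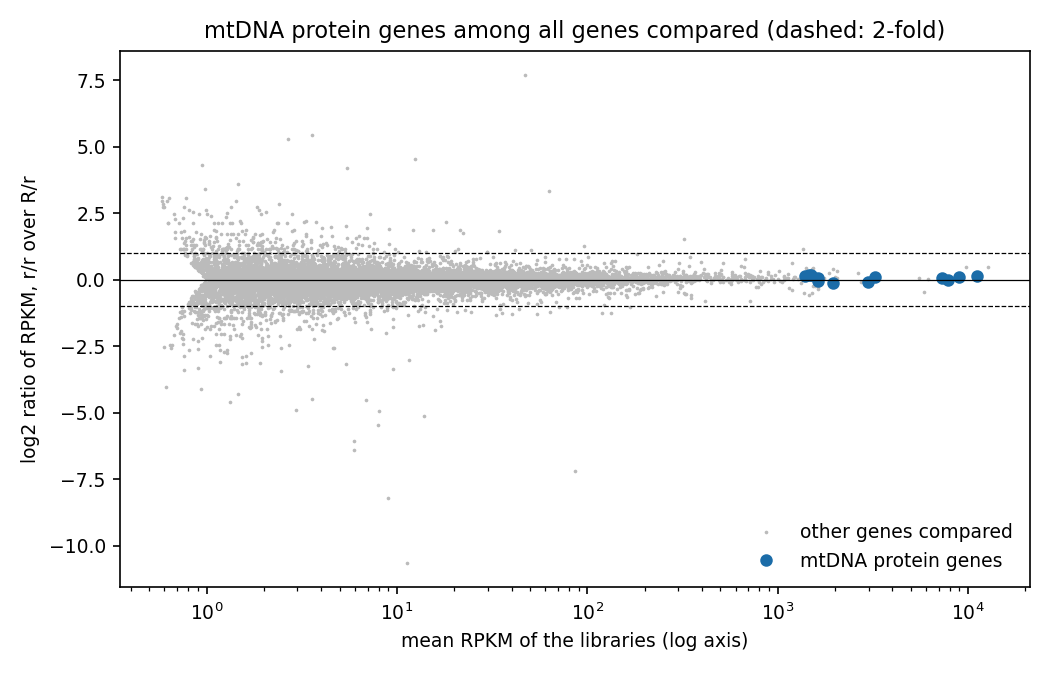
Mean RPKM of the libraries (horizontal log axis) against the log2 ratio of RPKM, r/r over R/r, for 16331 genes compared, with the 12 members as blue points and dashed lines at 2-fold. The members lie at the abundant end, and their log2 ratios run from -0.10 to 0.20.

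Along the mtDNA, the members with lower values in r/r tissue were next to each other. From MT-ND1 through MT-ND2, MT-CO1, MT-CO2, MT-ATP8, MT-ATP6 and MT-CO3 to MT-ND3, log2 ratios were above 0, with that of MT-ATP6 turning as given above. MT-ND4, MT-ND5 and MT-ND6, which follow, were all below 0 under every scaling tried, and CYTB at the end of the order was above 0 again. The ND4L feature (ENSSSCG00000018086) lies between MT-ND3 and MT-ND4, and its gene encodes a small membrane subunit of complex I. It had 1035 RPKM in R/r tissue and 1110 RPKM in r/r tissue, a log2 ratio of 0.10 (0.043 to 0.16), which was on the side of MT-ND3.

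Neighbours on a shared mRNA gave a measure of how far values of a single transcript can stand apart. MT-ATP8 and MT-ATP6 are translated from the same mRNA, and so are ND4L and MT-ND4. The RPKM of MT-ATP6 was 5.86-fold that of MT-ATP8 in R/r tissue and 5.37-fold in r/r tissue. For MT-ND4 against ND4L these folds were 2.97 and 2.61. In both pairs the longer gene had the higher RPKM, and in both the difference was smaller in r/r tissue. The log2 ratios of MT-ATP8 and MT-ATP6 differed by 0.12, and those of ND4L and MT-ND4 differed by 0.19, with intervals that did not overlap in either pair. Over all members, the distance from the highest to the lowest log2 ratio was 0.30. This distance lay between MT-ND3 and MT-ND6, neither of which is in such a pair. Gene models of these pairs have lengths of 204 and 681 bases and of 297 and 1378 bases, and the part of length and of the shared reads in their values was not tested. MT-ND5 and MT-ND6 overlap on opposite strands, and whether strand was used in counting is not given in the sources used here, so that reads of this pair may have been mixed.

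**Figure D3:**
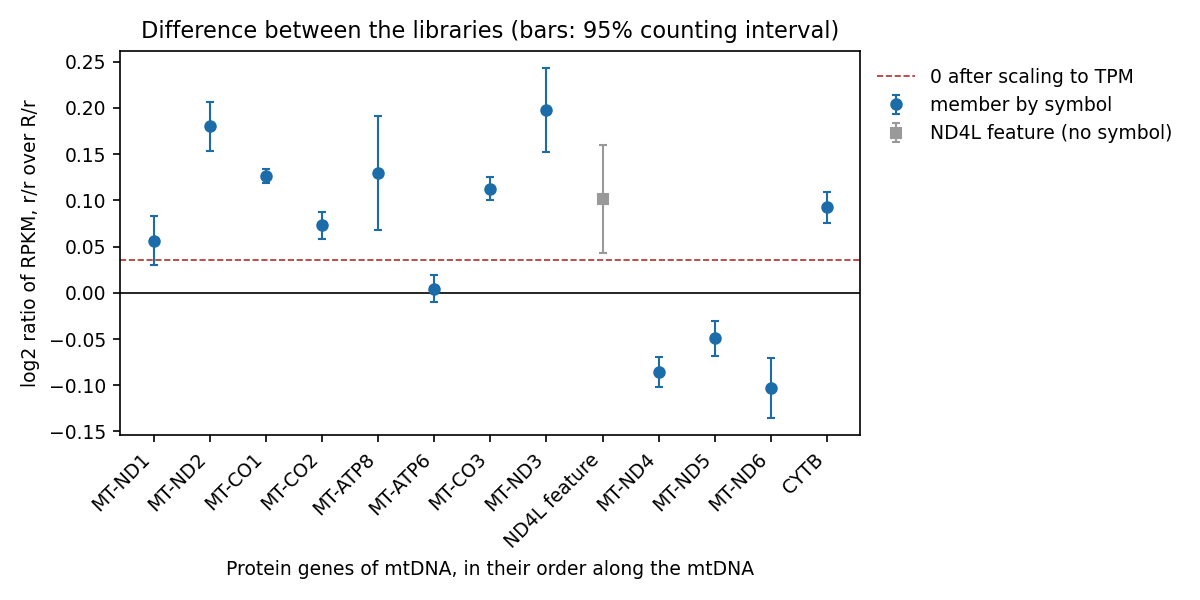
Log2 ratio of RPKM, r/r over R/r, of the members (blue) and the ND4L feature (grey) in their order along the mtDNA, with lines for 95% counting intervals. Values run from -0.10 for MT-ND6 to 0.20 for MT-ND3, and the dashed line shows where 0 would lie after scaling to TPM.

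The partners of the members in each complex are encoded in the nucleus, and their levels were far lower per gene. In complex IV the median level of the mtDNA genes was 8623 RPKM in R/r tissue and 9323 RPKM in r/r tissue, against 229 and 238 RPKM for the 12 nuclear genes found, a gap of 37.7-fold and 39.2-fold, or of 34.7-fold and 36.9-fold without COX8C, which was listed at 0 in both. In complex I, with 32 nuclear genes, the medians were 1624 and 1628 RPKM for mtDNA genes and 69.7 and 66.9 RPKM for nuclear genes. NDUFA4, the most abundant nuclear gene of complex IV, had 566 RPKM in R/r tissue and 634 RPKM in r/r tissue, which is below the level of MT-ATP8, the lowest member. ATP5B, which encodes the catalytic beta subunit of ATP synthase, had 602 and 618 RPKM, again below every member.

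Sums of mtDNA genes and of nuclear genes had small log2 ratios in every complex, from 0.0098 to 0.11. In so narrow a range sums of different complexes also lie near each other, so nearness within a complex is not particular to it. In complex IV the log2 ratios were 0.11 for the mtDNA genes and 0.094 for the nuclear genes, whose sum went from 2549 to 2721 RPKM. In complex III they were 0.092 for CYTB and 0.058 for 7 nuclear genes. In complex V they were 0.023 for the mtDNA genes and 0.035 for 12 nuclear genes, and in complex I they were 0.010 and 0.0098. Scaling to TPM turned the sign of the sums of complexes I and V, mtDNA and nuclear alike, while those of complexes III and IV stayed above 0 under every scaling tried. None of the nuclear genes compared in these complexes was at least 2-fold apart, against 3.99% of all genes compared, a share that would leave few such genes in lists this short, and their median log2 ratios were -0.017 for complex I, 0.034 for complex III, 0.066 for complex IV and 0.037 for complex V. Those of complexes I and III changed sign under another scaling, to 0.0014 by the median and to -0.0020 in TPM. Complex II, which has no mtDNA subunit, had a median of 0.039 over its 4 genes.

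**Figure D4:**
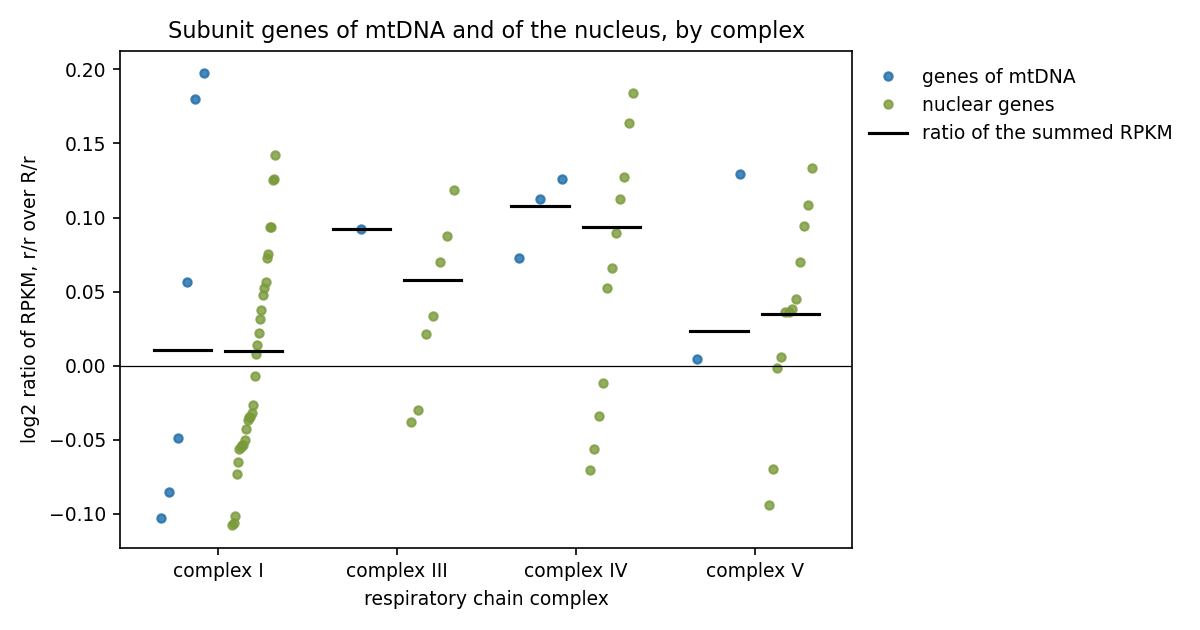
Log2 ratio of RPKM, r/r over R/r, of the members (blue) and of the nuclear genes (green) by respiratory chain complex, each point a gene, with black lines for the ratio of the summed RPKM. In complex IV the lines lie at 0.11 and 0.094, and in complex I at 0.010 and 0.0098.

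Genes for the expression and upkeep of mtDNA were examined as lists. Against 3.99% of all genes compared, none of 8 genes of mtDNA transcription, 19 of mitochondrial RNA processing and stability, 8 of mtDNA replication and upkeep or 62 of the mitochondrial ribosome was at least 2-fold apart, and their median log2 ratios were -0.13, -0.021, -0.12 and 0.015, the last -0.021 in TPM. TFAM, which packages mtDNA and starts its transcription, had 47.3 RPKM in R/r tissue and 43.7 RPKM in r/r tissue. REXO2, a ribonuclease of short RNAs and the most abundant gene of RNA processing, had 71.7 and 67.1 RPKM. Among 14 genes of mitochondrial membranes and matrix, which follow the mass of mitochondria, the median log2 ratio was 0.038, and the most abundant of them, the channel gene VDAC2, had 210 and 216 RPKM.

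Levels of SV cell markers are given beside those of the members. Of 9 intermediate cell and melanocyte genes listed, 7 could be compared and all 7 fell at least 2-fold short of their R/r level, against 2.20% of the genes compared. This list was chosen with earlier results of these data known, so the count describes it and tests nothing. It holds mainly pigment and potassium channel genes, not every gene of these cells. The paper states that some markers of these cells, among them S100, KIT, MUM1 and Kir1.2, were still expressed in r/r tissue. Together with electron microscopy of prenatal tissue, the paper concludes that intermediate cells were still present before birth. It ascribes the expression differences to the Mitf mutation and not to missing cells, which was not tested here. KIR1.2 is also among the 7 genes that fell, with 5.97 RPKM in r/r tissue and a log2 ratio of -1.75. S100B, which is outside the list used here, had 6091 RPKM in R/r tissue and 6272 RPKM in r/r tissue. Over all 9 genes the summed level went from 292 RPKM to 8.83 RPKM, TYRP1 was near 0 in both, MLANA was listed at 0 in r/r tissue, and the most abundant of them, DCT, a pigment enzyme, had 171 and 1.19 RPKM. The 6 marginal cell genes found of 9 listed had a median log2 ratio of -0.30. None was at least 2-fold apart, against 3.99% of all genes compared, a share that leaves few or no genes in so short a list. Of these genes SLC12A2 was higher, with 312 and 334 RPKM, and the sum of all 6 went from 1922 to 1442 RPKM. ATP1B2, the most abundant of these, had 915 and 522 RPKM. The members' sum was 52292 RPKM in r/r tissue with the sums of these lists lower, and the part of cell makeup in it was not tested. Sums over markers of muscle, another tissue rich in mitochondria, are given beside the members. A value of 0 in these files may be a failed estimate, since TPI1, a glycolytic enzyme gene of every cell named here after its values were seen, was also listed at 0. Heart muscle genes summed to 52.1 RPKM in R/r tissue and 82.2 RPKM in r/r tissue, with NPPA listed at 0 in both. MYH6 had 19.2 and 40.1 RPKM. It was the only gene at least 2-fold higher of 3 compared and 6 listed, against 1.78% of all genes compared. The intervals of MYH7 (-0.19 to 1.24) and TNNI3 (-0.42 to 0.67), from the reads found, held 0. This list too was chosen with earlier results known, so its count is not a test. Skeletal muscle genes summed to 23.3 and 22.3 RPKM, with MYH3 the most abundant and MYL1 listed at 0 in both. Of 12 listed, 4 could be compared and none was at least 2-fold apart, against 3.99% of all genes compared, again in a short list.

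The abundance of the members can be set beside that of the leading genes outside mtDNA. CLU, which encodes the secreted chaperone clusterin, had 10742 RPKM in R/r tissue, next to MT-CO1, and 14812 RPKM in r/r tissue. OTOR, an inner ear gene, had 8061 and 11327 RPKM, and COCH, a gene of spiral ligament fibrocytes, had 6826 and 4914 RPKM. The members MT-CO1, MT-CO3, MT-ATP6 and MT-CO2 lay in the same range of levels, with log2 ratios no larger than 0.13 against 0.46, 0.49 and -0.47 for CLU, OTOR and COCH. The other 2 of the 5 most abundant genes outside mtDNA differed as little as the members, S100B with 6091 and 6272 RPKM and a log2 ratio of 0.042, and EF1ALPHA with 5359 and 5678 RPKM and a log2 ratio of 0.083. Among 23 named genes with a mean RPKM within 2-fold of the members' median, those near to the members' sum in log2 ratio included NREP (1391 and 1468 RPKM) and ITM2B (1997 and 2081 RPKM). With 2 libraries this likeness is nearness of a single ratio.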

How the data were processed

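Lateral walls with SVs were sequenced with an Illumina TruSeq RNA kit as paired reads. The authors aligned them with TopHat 2.0.7 to Sscrofa10.2 and deposited RPKM per gene for both libraries; the counting program and annotation are not given in the sources used here. Log2 ratios of RPKM were computed without a pseudocount. For each library, the smallest total that made the reads of most mtDNA protein genes whole at RefSeq (Sscrofa11.1) lengths was taken, which held for 11 of 13 genes. MT-ND1 and MT-ND2 were whole at 957 and 1044 bases, within 0.01 reads. Reads of other genes may be a fraction of the true ones. Intervals are 95% Clopper-Pearson (exact Poisson for levels). The steps were tested on simulated data. Members and lists were chosen with earlier results of these data known. Genes named are all members, the extreme and most abundant genes of lists, the most abundant genes outside mtDNA and those nearest in ratio. List genes were matched by symbol, and where symbols repeat the highest mean RPKM was used. The table's 2 columns without headings, filled for 22 genes, were not used. Some results under these rules are not reported here. Nuclear copies of mtDNA can share reads with the members. Computation used Python 3.11.15 with scipy 1.17.1, numpy 2.4.6 and pandas 2.3.3, and plots used matplotlib 3.10.9.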

Additional observations from a re-analysis of the deposited data

How the results depend on the processing

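No paired analysis was possible because each genotype had 1 library. The share of the members in the R/r and r/r libraries was 8.84% and 9.03% over Ensembl features, 8.32% and 8.52% over features with RPKM of at least 1, 9.02% and 9.34% without the 10 most abundant features outside mtDNA, 4.91% and 5.16% of reads, and 8.47% and 8.68% with ND4L, the last chosen after seeing the data; it was higher in the r/r library each time. The log2 ratio of the summed RPKM was 0.035 scaled to TPM, 0.088 by the median, 0.080 by the upper quartile, 0.038 by the RPKM outside mtDNA and 0.055 without MT-CO1. No member was 1.5-fold or 4-fold apart, nor apart at the lowest threshold tried. The share of all genes compared was not computed at these thresholds, so these counts do not set the members apart. A counting interval without 0 was found for 11 members, against 21.2% of the genes compared, with the limits of depth given above. MT-ATP6 turned to -0.031 scaled to TPM and to -0.028 by the RPKM outside mtDNA, the single member to change sign among 72 values over scalings and pseudocounts. By the same scalings, chosen for complexes after seeing the data, complex I sums were -0.025 and -0.022 for mtDNA genes and -0.026 and -0.022 for nuclear genes, complex V sums were -0.012 and -0.0087 for mtDNA genes, and nuclear complex V was -0.00071 in TPM. The median of nuclear complex I genes was -0.052 in TPM and 0.0014 by the median. Of 19 list medians, 6 changed sign under some setting, among them nuclear complex III (-0.0020 in TPM), the mitochondrial ribosome (-0.021 in TPM) and skeletal muscle (0.049, and -0.25 and -0.098 at minimums of 5 and 10 RPKM). TPM and the RPKM outside mtDNA divide by a sum that was higher in the r/r library. Other causes were not tested. Genes named as mtDNA rRNA or tRNA were not found in the table, so adding them was not run. The sign of MT-ATP6 depends on the scaling, depth limits the order of the lowest members, and 1 library per genotype limits every value.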

Other observations

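Regulators of mitochondrial biogenesis had a median log2 ratio of -0.022 over 9 genes, which became 0.0011 and 0.099 at minimums of 5 and 10 RPKM, and none was at least 2-fold apart, against 3.99% of all genes compared. ESRRB, also a marginal cell marker, was the most abundant, with 69.6 RPKM in R/r tissue and 56.1 RPKM in r/r tissue. PPARGC1B had the lowest ratio, with 1.75 and 1.30 RPKM, and ESRRA the highest log2 ratio, 0.13. In the mitochondrial ribosome, MRPS6 was the most abundant gene, with 143 and 178 RPKM, MRPL21 had the lowest log2 ratio, -0.44, and MRPL15 the highest, 0.33. SLIRP, a partner of LRPPRC, had the lowest log2 ratio of the RNA processing genes, -0.96, with 4.80 and 2.46 RPKM, and the interval from the reads found, which may be a fraction of the true ones, ran from -2.65 to 0.53.

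MITF, the mutated gene, is named outside the rule for named genes and after its values were seen. It was listed as several features, of which the most abundant had 51.7 RPKM in R/r tissue and 37.8 RPKM in r/r tissue; these values do not separate its isoforms. Basal cell and fibrocyte genes had a median log2 ratio of -0.25 over 3 genes, and red blood cell genes one of -0.28 over 5 genes, with HBB at 1655 and 1393 RPKM. Bone genes had a median of -0.78 over 8 genes, and 3 of them, MEPE, COL1A1 and DMP1, were at least 2-fold lower, against 2.20% of all genes compared. Earlier results of these data were known when this list was chosen, so the count is not a test. SPP1 had the highest log2 ratio of this list, 0.27 (0.18 to 0.36), with 86.4 and 104 RPKM, and IBSP was the most abundant, with 431 and 268 RPKM. Brown fat genes had a median of -0.21 over 2 genes, and 1 hair cell gene, MYO7A, could be compared, with 1.46 and 0.902 RPKM.

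RNAs that carry no poly(A) tail, which a library made from tailed RNA should hold little of, summed to 1258 RPKM in R/r tissue and 1504 RPKM in r/r tissue. The feature named 5_8S_rRNA had 164 and 475 RPKM, a log2 ratio of 1.53 (1.36 to 1.70), and without it the sums were 1094 and 1029 RPKM. Of 183 such features compared, 30 were at least 2-fold higher, against 1.78% of all genes compared, and 29 at least 2-fold lower, against 2.20%, but these features rest on few reads, with medians of 4 and 3 reads found among those compared, which may be a fraction of the true ones. Of the 59 features at least 2-fold apart, 5 had a counting interval without 0. The median log2 ratio was -0.14, or 0.15 with no minimum RPKM, which is the value that 1 read in each library gives. Among 163 Ensembl features without a name and with RPKM of at least 50 in both libraries, 3 had reads that were whole, within 0.01, at the length of an mtDNA rRNA gene in RefSeq, ENSSSCG00000002539 and ENSSSCG00000018061 at the shorter length and ENSSSCG00000018063 at the longer. Length alone did not identify them, and they were not added to the members. Their RPKM was 87.7 and 82.1, 98.7 and 116, and 111 and 112.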
